A study of Rattus norvegicus with 44 samples.

Results

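Of the rat cytochrome P450 3A subfamily, 4 genes are described here: Cyp3a23-3a1, Cyp3a2, Cyp3a18 and Cyp3a9. Their members are all probe sets whose only annotated gene symbol is one of these 4. That rule found 7 of the 8740 probe sets that are no controls: 4 for Cyp3a23-3a1 and 1 each for Cyp3a2, Cyp3a18 and Cyp3a9. All 7 passed the filter on dim signal. Liver RNA of male Wistar rats, 8 weeks old, was measured on Affymetrix rat arrays, 1 array per sample and 44 in all, in 4 studies. Rats received compound R1 or R2, known here only by code name, or the citric acid buffer that served as vehicle, by gavage once a day. All livers were taken 24 h after the final dose. Study 1 lasted 24 h, with 3 arrays on vehicle and 4, 3 and 3 on R1 at 10, 30 and 100 mg/kg/day. Study 2, of 336 h, had 5 arrays at 20 and 4 at 100 mg/kg/day of R1, beside 4 on vehicle. Study 3, also of 336 h, had 4 arrays of R1 at 30 mg/kg/day and 5 of vehicle. Study 4, of 24 h, had 5 arrays of R2 at 300 mg/kg/day and 4 of vehicle.

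Enzymes of the CYP3A subfamily are heme proteins of the endoplasmic reticulum that oxidise a large share of drugs, as well as steroids such as testosterone, and bile acids. They draw electrons from P450 oxidoreductase (Por), with help from cytochrome b5. Many foreign compounds raise their transcription in liver through the pregnane X receptor (PXR, gene Nr1i2) and the related constitutive androstane receptor (CAR, gene Nr1i3), which bind paired hexamer sites as partners of a retinoid X receptor. In the rat, Cyp3a23-3a1 is the classic inducible form, Cyp3a2 and Cyp3a18 are male-predominant forms of adult liver, and Cyp3a9 is higher in females.

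The promoters of the 4 genes are shown because Cyp3a23-3a1 and Cyp3a2, neighbouring protein-coding genes on chromosome 12, matched the same paired hexamers. Their probe sets gave different values in these livers. Each sequence runs 5′ to 3′ on the strand of its gene, from 250 bases before the annotated start to 50 bases after it, as given by RefSeq for the rat assembly GRCr8. The windows are chr12:14398754-14399053 (minus strand) for Cyp3a23-3a1, chr12:14343808-14344107 (minus strand) for Cyp3a2, chr12:13994062-13994361 (plus strand) for Cyp3a18 and chr12:21960111-21960410 (minus strand) for Cyp3a9. Capitals mark a direct repeat of 2 hexamers with 3 bases between them (DR3), here in its reverse orientation.
Cyp3a23-3a1: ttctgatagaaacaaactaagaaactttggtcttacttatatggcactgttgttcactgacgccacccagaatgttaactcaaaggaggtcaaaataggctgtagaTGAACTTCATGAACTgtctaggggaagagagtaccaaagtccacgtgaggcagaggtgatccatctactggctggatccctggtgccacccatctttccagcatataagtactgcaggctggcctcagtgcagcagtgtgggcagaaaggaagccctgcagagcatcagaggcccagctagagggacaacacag
Cyp3a2: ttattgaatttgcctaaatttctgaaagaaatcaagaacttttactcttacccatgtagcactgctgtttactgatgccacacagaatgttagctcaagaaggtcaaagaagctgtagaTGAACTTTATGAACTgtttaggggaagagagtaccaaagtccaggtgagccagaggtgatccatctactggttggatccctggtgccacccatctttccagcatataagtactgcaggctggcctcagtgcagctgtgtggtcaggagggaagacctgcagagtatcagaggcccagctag
Cyp3a18: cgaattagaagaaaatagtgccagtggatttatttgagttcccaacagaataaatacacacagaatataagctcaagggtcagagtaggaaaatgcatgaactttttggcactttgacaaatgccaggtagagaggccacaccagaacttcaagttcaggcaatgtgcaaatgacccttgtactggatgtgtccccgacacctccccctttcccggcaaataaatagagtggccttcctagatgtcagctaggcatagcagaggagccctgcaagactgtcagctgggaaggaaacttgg
Cyp3a9: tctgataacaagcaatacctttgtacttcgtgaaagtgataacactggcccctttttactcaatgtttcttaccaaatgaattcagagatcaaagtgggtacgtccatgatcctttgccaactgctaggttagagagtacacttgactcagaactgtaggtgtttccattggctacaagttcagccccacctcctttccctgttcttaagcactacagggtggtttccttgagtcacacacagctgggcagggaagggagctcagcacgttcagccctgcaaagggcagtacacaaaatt

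The DR3 lay at positions -144 to -130 in Cyp3a23-3a1 and at -131 to -117 in Cyp3a2, counted from the start site. Hexamers searched were AGTTCA and AGGTCA, on both strands, as direct repeats with 3 or 4 bases between them (DR3, DR4) and as everted repeats with 6 (ER6), and no form searched overlaps another in these 4 windows. Of 33469 promoters of the same length, the form found, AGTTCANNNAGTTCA, was present in 2 (0.00598%), namely these 2. Any DR3 form was present in 14 (0.0418%), DR4 in 6 (0.0179%) and ER6 in 2 (0.00598%). None of these letters was found in the windows of Cyp3a18 and Cyp3a9, and such a match is a description of letters and not of binding. Cyp3a23-3a1 and Cyp3a2 were identical at 80.6% of aligned promoter positions. The other 5 pairs of promoters were identical at 54.2% to 58.7%. The 4 genes are close relatives, and whether a probe set of 1 also catches RNA of another was not tested, so each value below is uncertain as to the member.

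The deposited signal values held the same sorted numbers on all 44 arrays, between 0.056 and 13236 with a median of 14.5. Levels are therefore ranks on a common scale, and no probe set can exceed 13236. The Pearson correlation of 2 arrays of a group was 0.924 to 0.974 on the 6361 probe sets kept for testing. Fold changes are log2 differences ± SE of signal plus an offset of 2.89, from 1 limma model over the 11 groups, and the offset understates the change of dim probe sets. Calls are made at 0.05 on p-values adjusted by Benjamini-Hochberg over all 6361. Replicates carry only a number in the labels, and whether each was its own animal is unstated. A p-value therefore covers the spread among arrays, technical or not. Where livers are counted below, each stands for 1 array. The share of all probe sets whose treated and vehicle ranges do not overlap is not given, so such gaps only describe these arrays. The 3 R1 doses of study 1 share 1 set of vehicle arrays, and both doses of study 2 share another.

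All 4 Cyp3a23-3a1 probe sets and Cyp3a18 rose in each of the 7 comparisons of a dose with the vehicle of its own study. Cyp3a2 passed the limma test in 0 of 7 (in 2 at an unadjusted p under 0.05, both of study 2), and Cyp3a9 in 1, with R2. At 10 mg/kg/day of R1 and 24 h, 5 of the 7 probe sets were called higher, where 1.04% of all 6361 were. Of these 5, 4 belong to 1 gene, Cyp3a23-3a1, and are not independent. The same 5 of 7 were called higher at 30 mg/kg/day (1.48% of all) and at 100 mg/kg/day (3.96% of all) after 24 h. They were also called higher after 336 h at 20 mg/kg/day (2.55% of all), at 100 mg/kg/day (5.11% of all) and, in study 3, at 30 mg/kg/day (5.27% of all). With 300 mg/kg/day of R2 at 24 h, 6 of 7 were called higher, where 7.44% of all were, and Cyp3a9 was the one added. No member was called lower in any of them by limma. Lower calls made up 0.204%, 0.252% and 2.44% of all 6361 at 10, 30 and 100 mg/kg/day after 24 h, and 1.89% and 5.2% at 20 and 100 mg/kg/day in study 2. They made up 6.01% in study 3 and 7.88% with R2. The median log2 fold change of all tested probe sets lay between -0.05 and -0.01 in these 7 comparisons.

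The brightest Cyp3a23-3a1 probe set, X64401cds_s_at, had signals of 2253, 2939 and 2397 in the vehicle livers of study 1. At 10 mg/kg/day of R1 it read 7488, 9050, 8621 and 9475, at 30 mg/kg/day 10598 in each of 3 livers, and at 100 mg/kg/day 11688, 10952 and 12071. Study 2 gave 11688, 12071, 10258, 12597 and 12071 at 20 mg/kg/day and 12597, 12597, 11270 and 12071 at 100 mg/kg/day, against 1279, 1380, 1025 and 2197 with vehicle. Every treated liver of both studies stood far above every vehicle liver. In study 3 it read 12071, 11270, 12071 and 12071 at 30 mg/kg/day, against 2372, 3160, 4802, 3284 and 4861 with vehicle. In study 4 it read 9475, 9998, 11270, 11270 and 13236 with R2, against 1916, 2695, 1976 and 2468 with vehicle. No treated and vehicle ranges overlapped in any study, and the vehicle livers of study 3 were the highest of the vehicle groups on average.

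On the log2 scale the rise of X64401cds_s_at was 1.78 ± 0.18, 2.07 ± 0.20 and 2.20 ± 0.20 after 24 h of R1 at 10, 30 and 100 mg/kg/day. After 336 h it was 3.05 ± 0.16 at 20 mg/kg/day, 3.10 ± 0.17 at 100 mg/kg/day and, in study 3, 1.73 ± 0.16 at 30 mg/kg/day. R2 gave 2.29 ± 0.16. The largest limma adjusted p among the 7 was 7.65e-09.

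These values end near the top of the common scale. Among the 28 treated arrays X64401cds_s_at ranked between 1 and 24 of 8799 probe sets and was within the top 10 on 23 of them. Among the 16 vehicle arrays it ranked between 64 and 377. Given the vehicle means, the largest log2 rise the scale could show for it was 1.89 in study 3 and 3.23 in study 2. The measured rises lay between 0.13 and 0.62 below that limit. For D13912_s_at the distance to the limit was 0.87 to 1.89, for L24207_i_at 1.12 to 4.66 and for L24207_r_at 4.12 to 6.26. Differences between doses, times or studies that rest on X64401cds_s_at are therefore bounded by the scale.

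The second Cyp3a23-3a1 probe set, D13912_s_at, lay lower and left more room. In study 1 it read 822, 897 and 623 with vehicle, 2749, 3753, 3259 and 4802 at 10 mg/kg/day, 5377, 4455 and 4605 at 30 mg/kg/day, and 5520, 5520 and 6196 at 100 mg/kg/day. Readings in study 2 were 7926, 7488, 4802, 7398 and 6762 at 20 mg/kg/day and 7565, 6118, 6340 and 7398 at 100 mg/kg/day, against 497, 598, 457 and 818 with vehicle. All of its treated ranges cleared the vehicle range of their study. In study 3 it read 7281, 6762, 7398 and 7565 at 30 mg/kg/day, against 611, 1048, 1244, 720 and 1233 with vehicle. With R2 it read 6917, 6118, 5377, 6990 and 7780, against 570, 854, 545 and 553 with vehicle. Its log2 rise ran from 2.20 ± 0.21 at 10 mg/kg/day to 2.89 ± 0.23 at 100 mg/kg/day after 24 h. It was 3.55 ± 0.19 and 3.56 ± 0.20 at 20 and 100 mg/kg/day of study 2, 2.95 ± 0.19 in study 3 and 3.40 ± 0.19 with R2 (largest limma adjusted p among the 7, 1.34e-09).

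The L24207_i_at probe set of Cyp3a23-3a1 separated study 3 from all others. At 30 mg/kg/day after 336 h it read 6990, 5941, 6277 and 5309, against 138, 166, 450, 295 and 409 with vehicle, a rise of 4.52 ± 0.28. That was the largest rise of all 6361 probe sets in this comparison. In study 2 it read 1826, 1730, 2639, 2087 and 1469 at 20 mg/kg/day and 2749, 1738, 1406 and 1316 at 100 mg/kg/day, against 83.3, 84.0, 81.3 and 94.4 with vehicle, rises of 4.44 ± 0.28 and 4.29 ± 0.30. The lowest study 3 liver at 30 mg/kg/day was above the highest of study 2 at 100 mg/kg/day, while the other Cyp3a23-3a1 probe sets did not set study 3 apart in this way. In study 1 it read 98.0, 157 and 95.9 with vehicle, 552, 426, 430 and 723 at 10 mg/kg/day, 626, 951 and 655 at 30 mg/kg/day, and 1335, 607 and 1045 at 100 mg/kg/day. With R2 it read 586, 774, 1463, 923 and 1279, against 83.8, 86.6, 65.8 and 125 with vehicle, a rise of 3.40 ± 0.28.

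The dimmest, L24207_r_at, read 33.2, 24.2 and 43.0 with vehicle in study 1, 165, 139, 130 and 283 at 10 mg/kg/day, 219, 357 and 266 at 30 mg/kg/day, and 384, 209 and 408 at 100 mg/kg/day. Study 2 gave 601, 770, 1601, 634 and 540 at 20 mg/kg/day and 965, 850, 540 and 626 at 100 mg/kg/day, against 17.8, 35.6, 21.0 and 23.5 with vehicle. These gave the largest Cyp3a rises of the data, 4.84 ± 0.40 and 4.78 ± 0.42. Study 3 readings were 320, 500, 382 and 468 at 30 mg/kg/day, against 24.7, 27.9, 36.9, 29.3 and 63.0 with vehicle, a rise of 3.48 ± 0.40. With R2 the signals of 108, 69.0, 723, 322 and 408 spread widely, against 36.5, 37.3, 20.0 and 19.8 with vehicle, a rise of 2.99 ± 0.40 (limma adjusted p = 2.29e-07). The readings of 108 and 69.0 came from replicates 1 and 2. In a fit with arrays weighted by quality their weights, 0.417 and 0.347, were the lowest of all arrays. The 4 probe sets of this gene thus agreed in direction and in the call but not in size. Within 1 comparison their rises differed by 0.51 on the log2 scale at 10 mg/kg/day of R1 and by up to 2.79 in study 3.

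**Figure D1:**
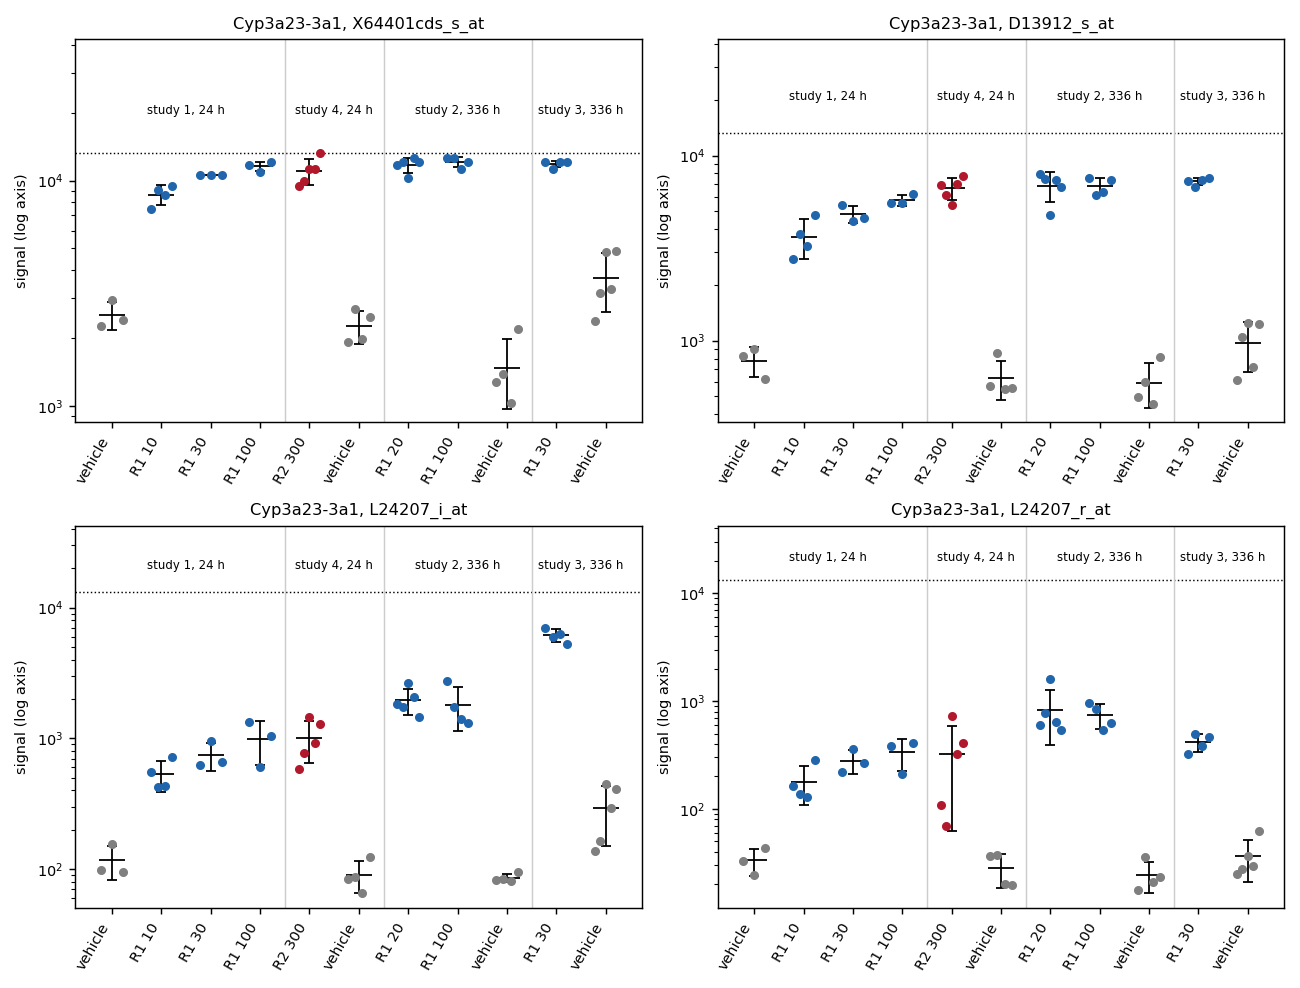
Signal of the 4 Cyp3a23-3a1 probe sets on each array (points, log axis), by group, with the group mean (horizontal mark) and SD (whiskers). Blue is R1, red is R2 and grey is vehicle, doses are in mg/kg/day, and the dotted line is the highest value of the common scale, 13236. Treated points of X64401cds_s_at crowd under that line, while those of L24207_r_at lie well below it, and no treated range meets the vehicle range of its study.

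Cyp3a18 rose in every comparison by a similar amount. In study 1 it read 475, 701 and 600 with vehicle, 1704, 1841, 2221 and 1611 at 10 mg/kg/day, 1543, 1628 and 2001 at 30 mg/kg/day, and 2197, 1447 and 1931 at 100 mg/kg/day. Readings in study 2 were 1984, 1976, 3098, 3035 and 2143 at 20 mg/kg/day and 1898, 2482, 1569 and 2569 at 100 mg/kg/day, against 783, 600, 658 and 607 with vehicle. The treated ranges cleared the vehicle ranges throughout, and the doses of 1 study overlapped each other. In study 3 it read 3799, 3827, 2845 and 3470 at 30 mg/kg/day, against 629, 844, 948, 1088 and 1365 with vehicle. With R2 it read 1857, 1841, 2109, 2939 and 2621, against 1187, 780, 660 and 744 with vehicle. The log2 rises were 1.64 ± 0.22, 1.55 ± 0.24 and 1.64 ± 0.24 at 10, 30 and 100 mg/kg/day after 24 h. They were 1.86 ± 0.20 and 1.66 ± 0.21 in study 2, 1.87 ± 0.20 in study 3 and 1.44 ± 0.20 with R2 (largest limma adjusted p among the 7, 1.37e-05). Its treated signals ranked between 87 and 270 of 8799, well under the top of the scale.

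Cyp3a2 was bright in all groups and did not pass the test in any comparison with vehicle. In study 1 it read 2186, 2049 and 2210 with vehicle, 1606, 2018, 2029 and 3078 at 10 mg/kg/day, 2749, 2695 and 2924 at 30 mg/kg/day, and 2939, 2939 and 3138 at 100 mg/kg/day. In study 2 it read 3138, 3532, 1592, 2884 and 3160 at 20 mg/kg/day and 2315, 3098, 2264 and 2962 at 100 mg/kg/day, against 2018, 2241, 1490 and 1949 with vehicle. In these studies the ranges at 30 and 100 mg/kg/day cleared vehicle, and 4 of 5 livers at 20 mg/kg/day did. With 3 arrays on each side, as at 30 and 100 mg/kg/day after 24 h, the smallest possible exact p is 0.1. The share of all probe sets with such a gap is not given here, so the gaps only describe these arrays. In study 3 it read 1891, 1697, 1279 and 1968 at 30 mg/kg/day, against 1474, 1848, 1770, 870 and 1225 with vehicle. With R2 it read 2122, 1738, 2143, 2749 and 3284, against 1697, 2359, 1730 and 2143 with vehicle. Its log2 differences ran from -0.02 (95% interval -0.49 to 0.45) at 10 mg/kg/day of R1 to 0.54 (0.12 to 0.95, limma adjusted p = 0.154) at 20 mg/kg/day. The intervals were -0.13 to 0.88 at 30 mg/kg/day and -0.02 to 0.99 at 100 mg/kg/day after 24 h. After 336 h they were 0.03 to 0.90 at 100 mg/kg/day and -0.13 to 0.69 at 30 mg/kg/day, and with R2 -0.16 to 0.67. Replicate 3 at 20 mg/kg/day, the low value of 1592, decided that call: without it the difference was 0.73 (limma adjusted p = 0.0203). For each member probe set this array gave the lowest or highest reading of its group. Its weight in a fit with arrays weighted by quality was 0.429, against 1.05 to 1.34 for the others of the group. Cyp3a2 had room on the scale, with its highest treated array ranked 96 of 8799.

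Cyp3a9, the dimmest member gene, varied most between livers of 1 group. In study 1 it read 53.9, 62.2 and 27.8 with vehicle, 65.0, 52.5, 81.7 and 80.2 at 10 mg/kg/day, 135, 130 and 47.9 at 30 mg/kg/day, and 100, 293 and 132 at 100 mg/kg/day. The differences were 0.57 ± 0.54, 1.01 ± 0.57 and 1.73 ± 0.57, the last with an adjusted p of 0.0619 in limma and with no overlap of the ranges. Study 2 gave 435, 321, 128, 338 and 268 at 20 mg/kg/day and 165, 366, 39.2 and 54.8 at 100 mg/kg/day, against 51.5, 119, 163 and 110 with vehicle. The difference was 1.40 ± 0.47 at 20 mg/kg/day (limma adjusted p = 0.0834) and 0.07 ± 0.50 at 100 mg/kg/day (0.970). Without replicate 3 of the 20 mg/kg/day group, its lowest liver and also the lowest there for Cyp3a2, that difference was 1.68 (limma adjusted p = 0.0374). In study 3 it read 369, 196, 307 and 294 at 30 mg/kg/day, against 389, 438, 294, 133 and 129 with vehicle, so these ranges overlapped in full. With R2 it read 188, 342, 514, 256 and 342, against 112, 64.7, 28.2 and 123 with vehicle. All 5 R2 livers stood above all 4 vehicle livers, a rise of 2.08 ± 0.47 (limma adjusted p = 0.00125).

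**Figure D2:**
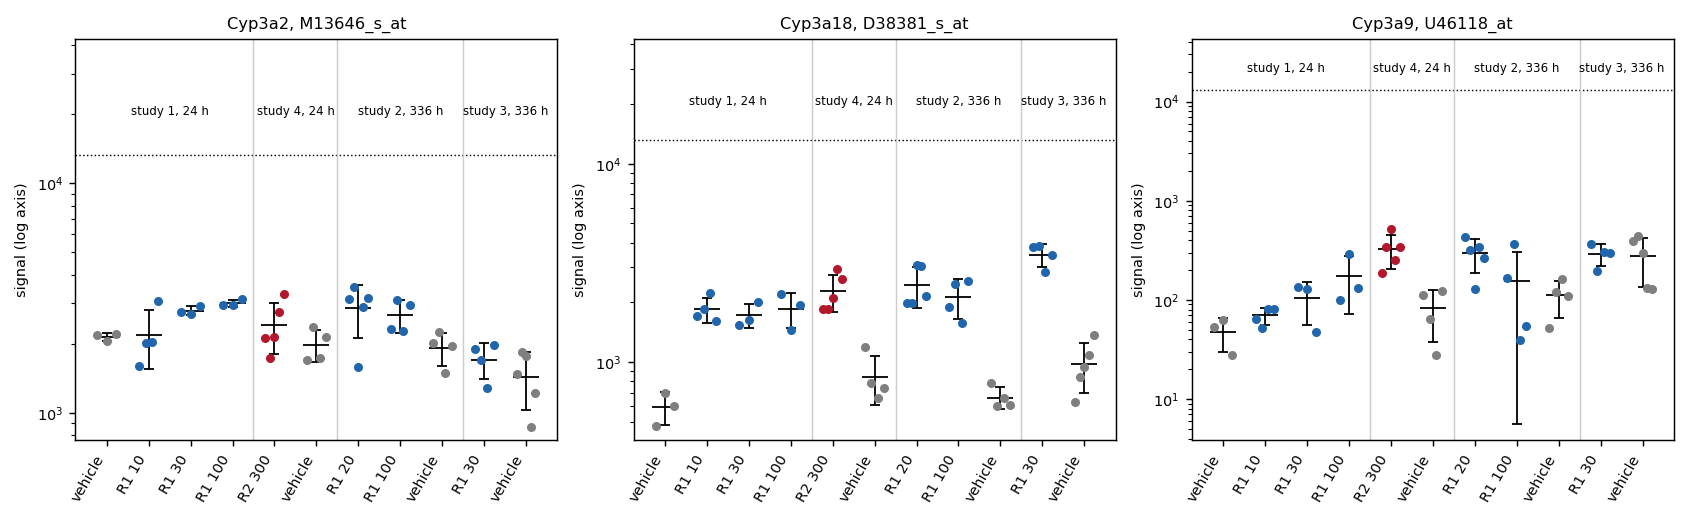
Signal of the Cyp3a2, Cyp3a18 and Cyp3a9 probe sets on each array (points, log axis), by group, with the group mean (horizontal mark) and SD (whiskers). Blue is R1, red is R2 and grey is vehicle, doses are in mg/kg/day, and the dotted line is the highest value of the common scale, 13236. Treated and vehicle points separate for Cyp3a18 in all 4 studies, overlap in most groups for Cyp3a2, and separate fully for Cyp3a9 with R2 and with R1 at 100 mg/kg/day after 24 h.

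Ordered by mean, the 7 treated groups stood above the 4 vehicle groups for each Cyp3a23-3a1 probe set and for Cyp3a18. For Cyp3a18 the order ran from 3485 ± 456 (SD, n = 4) in study 3 with R1 at 30 mg/kg/day to 592 ± 113 (SD, n = 3) in the vehicle livers of study 1. The sole gap between neighbouring ranges lay between the lowest treated group, 1724 ± 244 at 30 mg/kg/day after 24 h (SD, n = 3), and the highest vehicle group, 975 ± 275 in study 3 (SD, n = 5). For X64401cds_s_at the top was 12134 ± 627 at 100 mg/kg/day after 336 h (SD, n = 4) and the bottom 1470 ± 507 in the vehicle livers of study 2 (SD, n = 4). There, the group at 10 mg/kg/day was separate from the groups on both sides in the order, and all other neighbours overlapped. For Cyp3a2 the order ran from 3006 ± 114 (SD, n = 3) at 100 mg/kg/day after 24 h to 1437 ± 402 (SD, n = 5) in the vehicle livers of study 3. For Cyp3a9 it ran from 328 ± 122 (SD, n = 5) with R2 to 48.0 ± 17.9 (SD, n = 3) in the vehicle livers of study 1. All neighbours in the orders of Cyp3a2 and Cyp3a9 overlapped, and for Cyp3a9 the vehicle livers of study 3 came 4th of 11.

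Whether the member probe sets changed by unequal amounts was tested with the log2 ratio of each to X64401cds_s_at of Cyp3a23-3a1 on the same array. The test was a two-sided exact permutation test over arrays, 21 tests in all, added after the data were seen. Probe sets of Cyp3a23-3a1 alone differed by 0.51 to 2.79 within 1 comparison. The test thus compares probe sets and cannot decide whether the genes changed unequally. The change of Cyp3a2 minus that of Cyp3a23-3a1 was negative in 7 of 7 comparisons, from -2.63 at 100 mg/kg/day after 336 h to -1.45 at 30 mg/kg/day in study 3. In 3 of them the adjusted exact p was 0.0333: at 20 mg/kg/day (-2.51), at 30 mg/kg/day after 336 h (-1.45) and with R2 (-2.03). At 100 mg/kg/day after 336 h (-2.63) and at 10 mg/kg/day after 24 h (-1.80) the exact p of 0.0286 was the smallest the arrays allow, which adjusted to 0.0545. At 30 and 100 mg/kg/day after 24 h the smallest possible exact p was 0.1. In each of the 7 comparisons every treated array had a lower ratio than every vehicle array. That only describes these arrays, as no share over other pairs of probe sets is given.

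Set against X64401cds_s_at, the Cyp3a18 differences ran from -1.44 to 0.14, with 6 of 7 negative and study 3 the exception, and the one with R2 passed (-0.85, adjusted exact p = 0.0333). The Cyp3a9 differences ran from -3.03 at 100 mg/kg/day after 336 h to -0.21 with R2, and the one at 20 mg/kg/day passed (-1.64, adjusted exact p = 0.0333). Since X64401cds_s_at had 0.62 or less of the scale left above it, these sizes, and the sign in study 3, rest on a probe set near its limit.

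The same 21 tests were therefore repeated against D13912_s_at, which had at least 0.87 left, a choice made after seeing the data. The Cyp3a2 difference was then negative in 7 of 7 comparisons, from -3.15 with R2 to -2.22 at 10 mg/kg/day, and 5 passed. That of Cyp3a18 was negative in 7 of 7, from -1.96 with R2 to -0.56 at 10 mg/kg/day, and 4 passed. In study 3 the Cyp3a18 difference was -1.08 (adjusted exact p = 0.0278), the opposite sign to that against X64401cds_s_at. That of Cyp3a9 was negative in 7 of 7, from -3.49 at 100 mg/kg/day after 336 h to -1.16 at 100 mg/kg/day after 24 h, and 4 passed. With R2 the Cyp3a9 difference was -1.33 (adjusted exact p = 0.0833). Against L24207_i_at and L24207_r_at all differences were negative as well. For Cyp3a2, Cyp3a18 and Cyp3a9, 5, 4 and 5 of 7 passed against L24207_i_at, and 3, 2 and 2 against L24207_r_at. Against L24207_r_at, Cyp3a2 and Cyp3a9 at 10 mg/kg/day after 24 h had an adjusted exact p of 0.05, at the threshold. The same held for Cyp3a2, Cyp3a18 and Cyp3a9 at 100 mg/kg/day after 336 h. These did not count as passed, although their exact p of 0.0286 was the smallest the arrays allow. The Cyp3a9 differences with R2 were -1.32 (adjusted exact p = 0.0185) against L24207_i_at and -0.91 (0.242) against L24207_r_at.

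**Figure D3:**
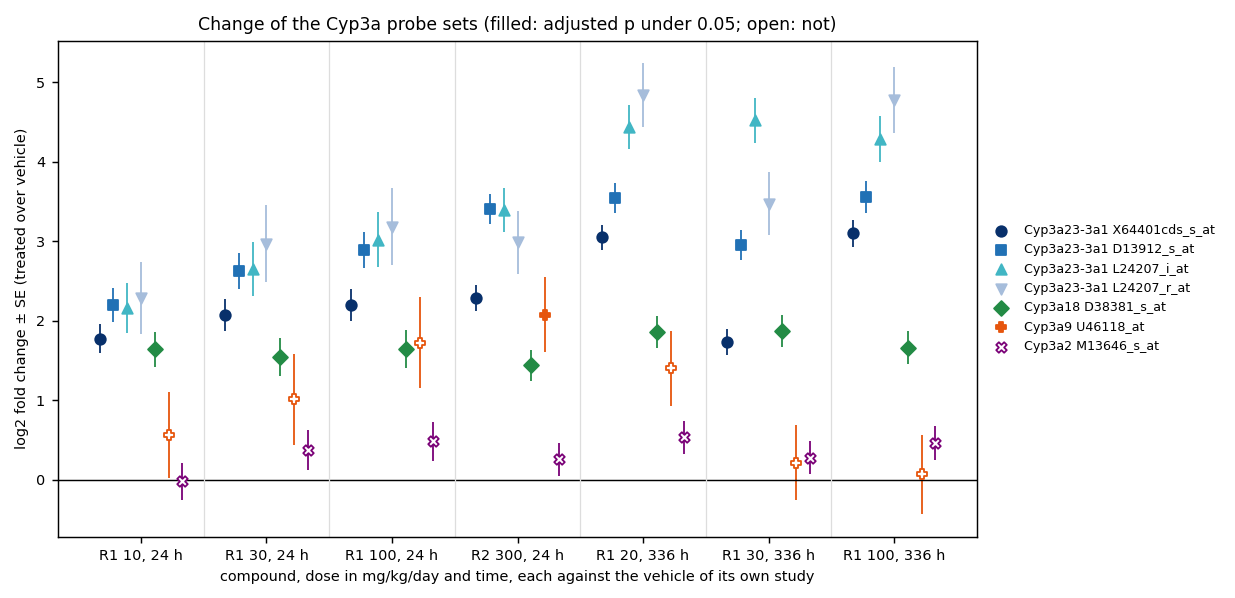
Log2 fold change ± SE of the 7 Cyp3a probe sets, treated over vehicle of the same study, in the 7 comparisons. Filled symbols mark an adjusted p under 0.05. The 4 Cyp3a23-3a1 probe sets spread furthest apart at 336 h, Cyp3a18 stays between 1.44 and 1.87, and Cyp3a2 has open symbols at -0.02 to 0.54.

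Comparing doses within studies 1 and 2 addressed whether more R1 moved these genes further. No member was called between doses by limma, where 0.377% of all probe sets were called for 30 against 10 mg/kg/day, 0.0629% for 100 against 30 mg/kg/day, 3.98% for 100 against 10 mg/kg/day and 4.07% for 100 against 20 mg/kg/day. At an unadjusted p under 0.05, the members passing in these 4 comparisons numbered 0, 0, 5 and 1. All 4 Cyp3a23-3a1 probe sets had a higher mean at 100 than at 10 mg/kg/day after 24 h, by 0.42 to 0.90 on the log2 scale. The closest to the threshold was D13912_s_at, by 0.69 ± 0.21 (limma adjusted p = 0.0571), and it passed without replicate 4 of the 10 mg/kg/day group (0.83, limma adjusted p = 0.0201). For Cyp3a18 the same difference was 0.00 (95% interval -0.45 to 0.45). Between 100 and 20 mg/kg/day after 336 h the 4 Cyp3a23-3a1 differences lay between -0.15 and 0.05. Cyp3a9 was 1.34 lower on the log2 scale at 100 than at 20 mg/kg/day on average (95% interval -2.29 to -0.39, limma adjusted p = 0.122). Without replicate 2 of the 100 mg/kg/day group, its highest liver, it fell by 1.91 (limma adjusted p = 0.00748).

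Time could be compared only across studies, so time and study cannot be told apart. Among the 7 probe sets, the effect of 100 mg/kg/day of R1 over vehicle was called larger in study 2 (336 h) than in study 1 (24 h) for X64401cds_s_at alone, by 0.90 ± 0.26 (limma adjusted p = 0.0298), where 5.3% of all probe sets were called. Treated means were 12134 in study 2 and 11571 in study 1, and vehicle means 1470 in study 2 and 2530 in study 1. The largest rises the scale allowed were 3.23 in study 2 and 2.40 in study 1, so the treated levels stood near 1 common limit and the vehicle levels apart. Leaving out 1 array at a time ended this call for 8 arrays of the 4 groups (adjusted p up to 0.119), and the others of the gene gave 0.67, 1.26 and 1.59 without passing. The effect of 30 mg/kg/day was larger in study 3 (336 h) than in study 1 (24 h) for L24207_i_at alone among the 7, by 1.87 ± 0.44 (limma adjusted p = 0.0194), where 0.959% of all were called. That call ended without replicate 2 of the study 1 vehicle (1.64, limma adjusted p = 0.111), and without replicate 1 (1.76, 0.0804) or replicate 3 (1.79, 0.0621) of the 30 mg/kg/day group of study 1. X64401cds_s_at gave -0.34 ± 0.26 for the same difference (limma adjusted p = 0.729), with 0.16 of the scale left above it in study 3. Cyp3a18, Cyp3a2 and Cyp3a9 were called in neither comparison of times.

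The vehicle livers of the 336 h studies also differed. Study 3 vehicle was higher than study 2 vehicle for X64401cds_s_at by 1.33 ± 0.16 (limma adjusted p = 3.77e-08), for L24207_i_at by 1.59 ± 0.28 (4.54e-05) and for D13912_s_at by 0.69 ± 0.19 (0.00664). Thus 3 of 7 were called, all of them of Cyp3a23-3a1, where 17.8% of all probe sets were. Cyp3a18 (0.52 ± 0.20, limma adjusted p = 0.0605), Cyp3a9 (1.23 ± 0.47, 0.0656) and Cyp3a2 (-0.46 ± 0.21, 0.124) did not pass. X64401cds_s_at rose less in study 3 than in study 2. Its treated levels were 11871 ± 400 (SD, n = 4) in study 3 and 11737 ± 888 (SD, n = 5) at 20 mg/kg/day in study 2. D13912_s_at also rose less (2.95, against 3.55 and 3.56), with treated ranges that overlapped between the studies. L24207_r_at rose less too (3.48, against 4.84 and 4.78), but its vehicle difference did not pass (0.48 ± 0.40, limma adjusted p = 0.451). Its highest treated liver in study 3 (500) was below its lowest in study 2 (540). L24207_i_at did not rise less. The cause of the smaller rises was not tested. Between the 24 h studies, study 4 vehicle against study 1 vehicle, 0 of 7 were called by limma, where 5.64% of all were. At an unadjusted p under 0.05 Cyp3a18 alone would have passed there (0.49, 95% interval 0.04 to 0.94).

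Across the 11 group means on the log2 scale, the 4 Cyp3a23-3a1 probe sets correlated with each other at r of 0.910 to 0.983 and with Cyp3a18 at 0.916 to 0.962. Cyp3a2 correlated with them at 0.298 to 0.618, Cyp3a9 at 0.460 to 0.636, and Cyp3a2 with Cyp3a9 at -0.11. These are descriptions over 11 means that share arrays and scaling. Among 3698 genes, the 4 most like Cyp3a23-3a1 were Ugt2b1 (r = 0.965), a glucuronosyltransferase, Aifm2 (0.964), an NADH:ubiquinone reductase, Slco1a4 (0.960), a sinusoidal uptake transporter, and Gstm2 (0.917), a glutathione transferase. Those most like Cyp3a18 were Gstm1 (0.955), Ugt2b1 (0.939), Ephx1 (0.928), the microsomal epoxide hydrolase, and Akr7a3 (0.916), an aflatoxin aldehyde reductase. Cyp3a2 was most like C9h2orf69 (0.930), Cltc (0.922), the clathrin heavy chain, Ptbp3 (0.901) and Sptan1 (0.882), an alpha spectrin. Cyp3a9 was most like Csf3 (0.844), Akr1c14 (0.842), a hydroxysteroid dehydrogenase, Prps1 (0.833) and Rgs19 (0.811).

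Other targets of PXR and CAR were taken as a list of 15 genes, of which 13 could be tested. In study 1, 2 of 13 were called higher at 10 mg/kg/day, 6 at 30 mg/kg/day and 7 at 100 mg/kg/day, with median log2 fold changes of 0.68, 1.10 and 1.20. Of all 6361 probe sets 1.04%, 1.48% and 3.96% were called higher at these doses. In each of the 336 h comparisons 10 of 13 were called higher and 1 lower, with medians of 1.90 at 20 mg/kg/day, 1.80 at 100 mg/kg/day and 1.75 at 30 mg/kg/day. In the same order 2.55%, 5.11% and 5.27% of all probe sets were called higher and 1.89%, 5.2% and 6.01% lower. With R2, 10 were higher and 0 lower by limma (0 lower at an unadjusted p under 0.05), with a median of 1.06. The shares of all probe sets with R2 were 7.44% higher and 7.88% lower. Those called at the lowest dose, 10 mg/kg/day, were Slco1a4 (2.06) and Akr7a3 (1.38). Abcc3, a basolateral export pump, rose by 2.71, 3.03 and 2.56 at 20, 100 and 30 mg/kg/day after 336 h. Gsta3, a glutathione transferase, rose by 4.65, 4.76 and 3.62 in the same groups. The lower gene was Cyp2c7, a retinoid-oxidising P450, which fell by 0.99, 1.76 and 1.35.

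Of 12 genes for electron transfer and heme synthesis 8 could be tested, and 1 to 2 were called higher in each comparison. The share of all probe sets called higher was 1.04% to 7.44%. Por rose by 1.94, 2.12 and 2.28 on the log2 scale at 10, 30 and 100 mg/kg/day after 24 h, by 1.99 at 30 mg/kg/day in study 3 and by 1.70 with R2. In study 2 Por did not pass, with 0.36 at 20 mg/kg/day and -0.44 at 100 mg/kg/day, so the effect of 100 mg/kg/day was lower by 2.72 ± 0.53 than in study 1 (limma adjusted p = 7.02e-04). This is the opposite sign to the difference in X64401cds_s_at between the same groups. Alas1, the first enzyme of heme synthesis, rose by 1.21 and 1.63 at 30 and 100 mg/kg/day after 24 h, by 0.92 in study 3 and by 1.52 with R2. The 2 genes called lower with R2, where 7.88% of all probe sets were, were Urod (-0.48) and Ppox (-0.54), both of heme synthesis. Cyb5a, cytochrome b5, did not pass in any of the 7 comparisons (0.37 to 0.62).

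**Figure D4:**
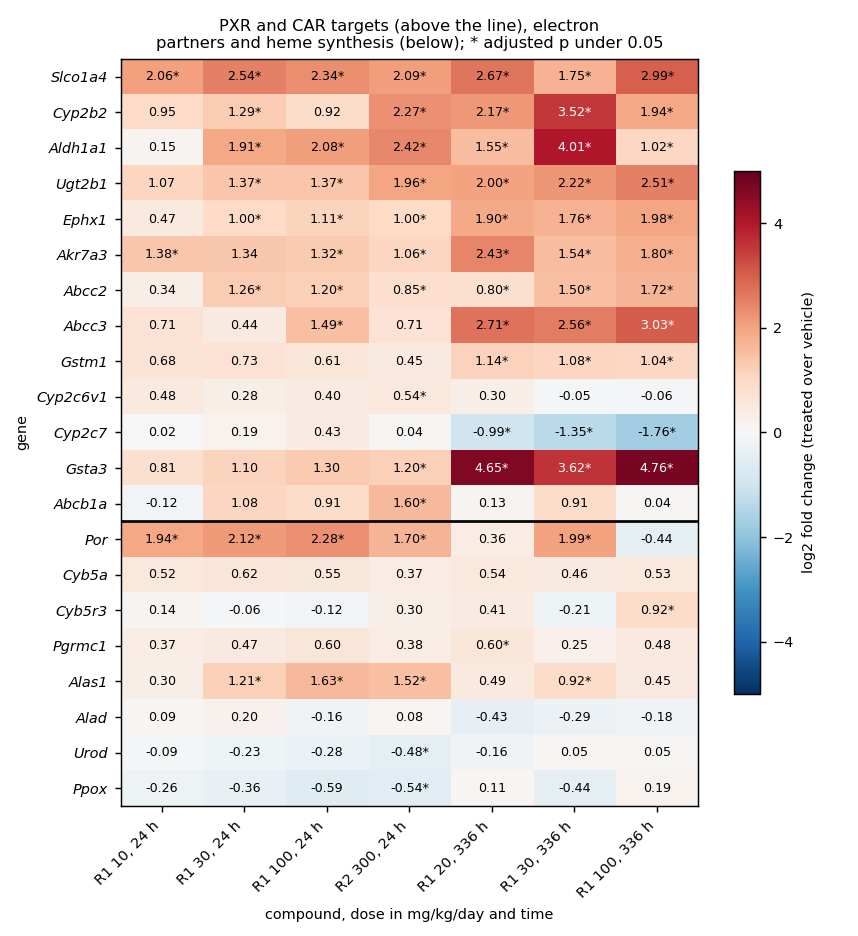
Log2 fold change (treated over vehicle of the same study) of 13 other targets of PXR and CAR (upper block) and 8 genes of electron transfer and heme synthesis (lower block) in 7 comparisons; an asterisk marks an adjusted p under 0.05. Slco1a4 is called in every column, Cyp2c7 is lower in the 336 h columns, and Por is called in all but the study 2 columns.

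Of 23 receptors and other regulators of Cyp3a transcription, 18 could be tested, and Nr1i2 and Nr1i3 were not among them. At 10, 30 and 100 mg/kg/day after 24 h 0, 0 and 1 were called higher, the last being Hnf4a (0.80 ± 0.20), a hepatocyte nuclear receptor. Of all probe sets 1.04%, 1.48% and 3.96% were called higher at these doses, so 1 of 18 stood near the share of all. At an unadjusted p under 0.05, 2 were higher and 1 lower at 10 mg/kg/day, 0 higher and 1 lower at 30 mg/kg/day, and 2 higher and 5 lower at 100 mg/kg/day. No share of all probe sets is given here for the unadjusted threshold. Neither dose of study 2 gave a call by limma, with 2 higher and 0 lower at 20 and 2 higher and 4 lower at 100 mg/kg/day at an unadjusted p under 0.05. Study 3 gave 3 lower, where 6.01% of all were: Nr3c1, the glucocorticoid receptor (-1.23 ± 0.30), Foxa3 (-0.82 ± 0.24) and Rxrg (-0.70 ± 0.21). With R2, 5 of 18 were lower, where 7.88% of all probe sets were, among them Onecut1 (-2.34 ± 0.75), Foxa1 (-1.15 ± 0.28) and Cebpa (-0.84 ± 0.21), which are liver transcription factors.

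As Cyp3a2 and Cyp3a18 are male-predominant, 5 other male-predominant and 6 female-predominant genes were set beside them. Of the 5 male-predominant genes 0 were called in study 1 and at 20 mg/kg/day in study 2 by limma (1, 0, 2 and 0 lower at an unadjusted p under 0.05), while 2 fell at 100 mg/kg/day after 336 h, Obp3 (-4.45) and Cyp2c11 (-3.40). In study 3, 3 fell, among them Obp3 (-1.42) and Cyp2c11 (-1.10), and with R2 3 fell, among them Car3 (-3.39). Of all probe sets 5.2% were called lower at 100 mg/kg/day after 336 h, 6.01% in study 3 and 7.88% with R2. Cyp2c11, the main male-specific P450 of rat liver, thus moved opposite to Cyp3a18 in these groups, and Cyp3a2 passed in neither direction. Of the 4 female-predominant genes tested, 0, 1 and 2 rose across the 3 doses of study 1 and 1 or 2 elsewhere. The share of all probe sets called higher was 1.04%, 1.48% and 3.96% in study 1 and 2.55% to 7.44% elsewhere. Sult2a2, a hydroxysteroid sulfotransferase, rose in 6 of the 7 comparisons, and Cyp2c12 rose at 100 mg/kg/day after 336 h (2.89 ± 0.73).

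The livers were read as whole tissue, in which fewer cells of a type and less RNA per cell cannot be told apart. Hepatocyte markers were near the top of the scale in all groups: the summed signal of 5 tested markers ran from 37578 to 49228 over the 44 arrays. Of these only Apoa1 was called, higher at 100 mg/kg/day (0.43) and 30 mg/kg/day (0.59) after 336 h. The single macrophage marker tested, Clec4f, fell by 0.88, 1.31 and 0.82 at 20, 100 and 30 mg/kg/day after 336 h, at signals of 81.9 to 445. Epcam, 1 of 2 bile duct markers tested, rose by 1.07, 1.64 and 1.30 in the same groups and by 1.08 with R2, with the 2 markers summing to 19.2 to 163. Of 3 endothelial markers Kdr fell by 0.91 at 100 mg/kg/day and by 1.19 at 30 mg/kg/day after 336 h, and the 3 summed to 23.4 to 79.2. Of 2 stellate cell markers tested Col1a1 fell by 1.51 in study 3 and Acta2 by 1.93 with R2. The part of these shifts in the Cyp3a values was not tested. Across the 7 comparisons 1.04% to 7.44% of all probe sets were called higher and 0.204% to 7.88% lower. The marker calls above and the lower calls in 2 lists of zonal genes below stand beside these shares. Periportal genes, 6 in all, gave 0, 2 and 5 lower calls across the 3 doses of study 1, 2 and 4 at 20 and 100 mg/kg/day in study 2, 4 in study 3 and 5 with R2. Of 5 pericentral genes tested, 0, 0 and 1 were lower in study 1, 1 and 3 in study 2, 2 in study 3 and 2 with R2, and none was higher in any of the 7 comparisons.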

How the data were processed

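Per the submitters' processing notes, the authors made the deposited signal intensity values with MAS5 (version and scaling not given in the sources used here). All 44 arrays held the same sorted values (largest difference 0), so a common distribution had been imposed, which no label states. Of 8799 probe sets, 59 controls were left out, and in a table of the array's annotation 7017 of the rest had 1 symbol, 297 several and 1426 none. The offset of 2.89 was percentile 20 of all values, and the test took in probe sets with a group mean of at least 9.17, percentile 40, which left 6361. limma 3.58.1 in R 4.3.3 fitted 1 mean per group over 11 groups and let the variance follow the mean (33 degrees of freedom left), with Benjamini-Hochberg adjustment within each of 15 comparisons. Python 3.11.15 prepared tables, exact permutation tests, promoter matches (RefSeq, GRCr8) and plots. The brightest probe set represents a gene outside the 4. Genes were named by rule: every member, the 4 genes most like each member by Pearson r over group means, and called or well-known genes of the lists. The members and lists were chosen with earlier results of these data known. Alternatives were other offsets and filters, no trend, centring on the tested probe sets, array weights, a replicate block, each study alone, averaging probe sets by gene, and leaving out 1 array. The ratio test between members was added after the data were seen, as was its repeat against the other Cyp3a23-3a1 probe sets. Tested on simulated data with 200 of 6361 probe sets changed, the procedure recovered 46% of 2-fold and 88% of 4-fold changes for 10 mg/kg/day of R1 at 24 h, and 44% and 97% with R2. Of its calls on these simulated data, 5 of 139 were false for 10 mg/kg/day of R1 and 14 of 155 with R2. The number of arrays and the signal over background limit the precision.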

Additional observations from a re-analysis of the deposited data

Results flagged for a closer look

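For 3 results 1 liver lay far from the others of its group. Cyp3a2 read 1592 in replicate 3 of the 20 mg/kg/day group of study 2, against 2884 to 3532 in the other 4. That array was also the lowest or highest of its group for the other member probe sets. D13912_s_at of Cyp3a23-3a1 read 854 in replicate 2 of the study 4 vehicle, against 545 to 570 in the other 3. X64401cds_s_at of Cyp3a23-3a1 read 11270 in replicate 2 at 30 mg/kg/day of study 3, against 12071 in each of the other 3, which are ranks 5 and 3 from the top of the common scale. Of 56 sets of 4 or 5 livers examined, 3 met this rule, about what chance gives at 1 in 20.

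The effect of R1 differed between times, each in a different study, for 2 Cyp3a23-3a1 probe sets. The difference was 1.87 for L24207_i_at at 30 mg/kg/day (study 3 at 336 h over study 1 at 24 h) and 0.90 for X64401cds_s_at at 100 mg/kg/day (study 2 at 336 h over study 1 at 24 h). The other probe sets of the gene did not pass in either.

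X62086mRNA_s_at, annotated to both Cyp3a2 and Cyp3a23-3a1 and so not among the 7 members, was higher in every dose group than in the vehicle of its study. Its means were 6744, 6932 and 9255 at 10, 30 and 100 mg/kg/day of R1, against 2868 in the vehicle livers of study 1. They were 9200 at 20 mg/kg/day and 9855 at 100 mg/kg/day, against 2020 in the vehicle livers of study 2. They were 12757 at 30 mg/kg/day in study 3, against 4304 with vehicle, and 9645 with R2, against 3344 with vehicle. The log2 rises ran from 1.23 ± 0.17 at 10 mg/kg/day to 2.29 ± 0.16 at 100 mg/kg/day after 336 h, all called by limma. In study 3 its 4 treated arrays read between 12597 and 13236, the highest value of the scale, where its highest treated array in study 2 read 11270.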

How the results depend on the processing

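All 36 calls of Cyp3a probe sets against vehicle kept their direction and passed in every alternative run, with an adjusted p of 0.0392 at most. The number of Cyp3a probe sets called changed elsewhere. For the difference in the 100 mg/kg/day effect between times it was 1, and 0 without the filter and without the trend. For 100 against 10 mg/kg/day it was 0, and 1 (D13912_s_at) with the stricter filter, with the replicate block, with array weights and with each study fitted alone. For study 3 against study 2 vehicle it was 3, and 6 with array weights. Leaving out 1 array gave 0 to 1 for both comparisons of times and for 100 against 10 and 100 against 20 mg/kg/day. With the replicate block D13912_s_at was 0.83 higher at 100 than at 10 mg/kg/day (adjusted p = 0.0166). Same-numbered arrays of a study did not deviate together (median correlation 0.0361 over 38 pairs, -0.0898 to 0.153), and the block could not be fitted between studies. It changed no other call of a Cyp3a probe set. Cyp3a9 at 100 mg/kg/day after 24 h passed with the stricter filter (adjusted p = 0.0469), with array weights (0.0262) and with study 1 alone (0.0161). With array weights Cyp3a2 (0.62, 0.0183) and Cyp3a9 (1.68, 0.00687) also passed at 20 mg/kg/day.

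Changes of sign in the fold changes came only where the value of the main fit was 0.3403 or less in size. No value with a changed sign passed (smallest limma adjusted p = 0.5535). With the block they were Cyp3a9 at 30 mg/kg/day after 336 h (-0.0064) and Cyp3a18 for 100 against 10 mg/kg/day (-0.060). With array weights they were Cyp3a18 for 100 against 10 mg/kg/day (-0.0070), and for 100 against 20 mg/kg/day D13912_s_at (-0.083) and L24207_r_at (0.052). Averaged over its probe sets, Cyp3a23-3a1 gave -0.038 for 100 against 20 mg/kg/day and 0.59 for the 30 mg/kg/day effect between times, against -0.34 in its brightest probe set. Set against the other 3 Cyp3a23-3a1 probe sets, the Cyp3a18 difference in study 3 was -1.08 (D13912_s_at), -2.65 (L24207_i_at) and -1.60 (L24207_r_at), against 0.14 with X64401cds_s_at.

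With 1 array left out, signs changed in these ranges. Cyp3a2 lay between -0.20 and 0.12 at 10 mg/kg/day, -0.27 and 0.020 for 100 against 20 mg/kg/day, -0.26 and 0.037 for the 30 mg/kg/day effect between times and -0.13 and 0.062 for the 100 mg/kg/day effect. Cyp3a18 lay between -0.035 and 0.27 for 100 against 30 mg/kg/day, -0.13 and 0.17 for 100 against 10 mg/kg/day and -0.15 and 0.17 for the 100 mg/kg/day effect between times. Cyp3a9 lay between -0.51 and 0.53 at 100 mg/kg/day and between -0.0064 and 0.43 at 30 mg/kg/day after 336 h. For 100 against 20 mg/kg/day D13912_s_at lay between -0.11 and 0.068 and L24207_r_at between -0.20 and 0.20. The causes were not tested.

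The number of all probe sets called, against which the members are read, was 79 at 10 mg/kg/day (37 to 95 with 1 array left out), 407 at 100 mg/kg/day after 24 h (263 to 376, and up to 633 in other settings) and 717 in study 3 (453 to 672). It was 282 at 20 mg/kg/day (219 to 452 in other settings) and 359 between the 24 h vehicles (193 to 291 with 1 array left out, and up to 714 in other settings). For 30 against 10 mg/kg/day it was 24 (8 to 25, and 18 to 38), for 100 against 10 mg/kg/day 253 (124 to 276, and up to 380), for 100 against 30 mg/kg/day 4 (0 to 7, and 0 to 5), and for the 30 mg/kg/day effect between times 61 (30 to 61). At 30 mg/kg/day after 24 h it was 110 (73 to 110).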
